A study of Mus musculus with 17 samples.

Results

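Potassium channel genes were followed in mouse sympathetic ganglia as the 78 probe sets, of 17306 on the array, whose gene symbol starts with Kcn. They cover pore-forming subunits, auxiliary subunits and a few transcripts named after a channel gene. Families were assigned by gene name, not by the measured role of each subunit. By name 29 were voltage-gated pores and 12 were auxiliary subunits of voltage-gated channels. The group of calcium- or sodium-activated pores held 7 (names in Kcnma, Kcnn, Kcnt and Kcnu), and 5 were named for the beta subunits of the BK channel. Another 14 were inward rectifiers, 10 were tandem-pore leak channels, and 1 was Kcnq1ot1, an imprinted antisense RNA.

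RNA was measured on 17 Affymetrix Mouse Genome arrays of C57BL/6 mice, for which the study pooled superior cervical and stellate ganglia. At birth (P0) 4 arrays each came from wild-type (Wt) mice, from heterozygous (Het) mice with 1 Alk F1178L knock-in allele and from homozygous (Hom) mice with 2 such alleles. At postnatal day 18 (P18) 3 arrays came from Wt and 2 from Het mice, and Hom ganglia of that age were not analysed here. Alk encodes a tyrosine kinase receptor that young sympathetic neurons carry. The knock-in allele carries the mutated exon between a LoxP and a Lox511 site, is present in every cell of the mutant mice, and is absent from the Wt controls. The labels name no batch, litter or date. Stage and batch therefore cannot be told apart, and the P0 sample numbers run genotype by genotype. The labels do not say from how many animals the samples came, and p-values here measure only the spread between these samples, which may be technical.

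Potassium channels let potassium leave the cell and so set the resting potential, repolarise the action potential and govern how fast a neuron can fire again. In sympathetic neurons the M current (Kcnq pores) and the calcium-activated SK and BK channels restrain repetitive firing, the A current (Kv4 pores with KChIP and DPP partners) delays it, and leak channels set the resting potential. Auxiliary subunits change the gating or number of a channel without forming the pore. In bulk ganglia, a lower value from fewer cells of a type and one from less RNA per cell cannot be told apart.

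The values are log2 expression, so that a difference of 1 is a doubling of the linear value. Each probe set has its own brightness, so levels of different genes are not compared. Values under about 4 lie near background, where the size of a difference is inexact. A probe set was tested if it exceeded 4 in at least 2 arrays, which held for 28 of the 78 members (35.9%) and for 9973 of all probe sets (57.6%). By family 8 voltage-gated pores, 3 of their auxiliary subunits, 5 calcium- or sodium-activated pores, 3 BK auxiliary genes, 5 inward rectifiers, 3 leak channels and Kcnq1ot1 were tested. Of the 50 others, 47 exceeded 4 in no array and 3 (Kcnab1, Kcna4 and Kcnk6) in 1 array. Their highest value was 5.19, and the median of their highest values was 2.51. Kcnq3, Kcna2, Kcnd1, Kcnd3, Kcnip2, Kcnip3, Kcnn1, Kcnn3, Kcnj5, Kcnj6, Kcnj9, Kcnj11, Kcnk3 and Kcnk10 were among them and were not tested. Only 16 members exceeded 4 in every array, and the other 12 passed through some of the groups.

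The ganglia carried their defining transcripts, with the 10 sympathetic neuron genes analysed here, of 12 listed, past the filter and over 4 in every array (Th and Dbh among them). Their level moved with the groups. The median of these 10 genes was 11.93 to 12.18 in P0 Wt, 12.06 to 12.09 in P0 Het, 11.63 to 11.93 in P0 Hom, 12.32 to 12.48 in P18 Wt and 12.16 to 12.17 in P18 Het arrays. Of the 10, 1 was called higher in Het against Wt, 2 lower in Hom against Wt and 5 lower in Hom against Het, and with age 6 rose and 3 fell in Wt and 4 rose and 3 fell in Het ganglia. Markers of other cells moved too. The median of 7 glial genes was 7.64 to 10.66 in P0 Wt, 7.08 to 7.33 in P0 Het, 6.81 to 7.76 in P0 Hom and 8.76 to 9.46 at P18. The median of 15 mitosis genes was 3.69 to 4.93 in P0 Wt, 5.34 to 5.86 in P0 mutant and 2.42 to 2.52 in P18 ganglia. Muscle medians of the P0 Wt arrays ran from 2.62 to 10.15. Fat medians were 8.28 to 10.08 in P0 Wt and 3.76 to 7.72 in P0 Het, and in P0 Hom they were 4.48, 6.92 and 6.34 in replicates 9, 11 and 12 and 11.12 in replicate 10. Of 16 sensory neuron genes listed, 8 were found on the array and 3 passed the filter. The factor Pou4f1 stood at 5.94 and 5.40 in P0 Wt replicates 1 and 4 and at 2.51 to 2.62 in all other arrays. Scn11a was also highest in those replicates (8.11 and 7.85) and stood at 4.02 to 4.96 at P18. Avil stood at 9.51 and 8.37 in those replicates and at 3.69 to 5.96 in the other P0 arrays. It was highest at P18, at 11.73 to 12.14. The part of these genes and cells in the differences given next was not tested, except where a value is stated.

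At birth the channel genes were compared between genotypes to see which of them differed with 1 or 2 mutated Alk alleles. In Hom ganglia the voltage-gated pore gene Kcna5, the A-current partner Kcnip1, the leak channel gene Kcnk2 and the sodium-activated pore gene Kcnt1 rose, and the BK subunit gene Kcnmb2, the pore gene Kcna1 and the A-current partner Kcnip4 fell. These 7 are 25% of the 28 members tested, and 8.5% of all probe sets were called (5.16% higher and 3.34% lower). In Het ganglia Kcnip1 rose and Kcna1 fell, which is 7.14% of the members beside 3.11% of all probe sets. Between Hom and Het ganglia 4 members (14.3%) were called, Kcna5 and Kcnk2 higher and Kcnmb2 and Kcnip4 lower in Hom, beside 7.39% of all probe sets. The 3 comparisons share their arrays. A member was called at a Benjamini-Hochberg adjusted p under 0.05 in limma, adjusted over all 9973 probe sets. The median difference of the members was -0.05 in Het and -0.05 in Hom, beside 0.04 and 0.01 over all probe sets, so the members did not move together.

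**Figure D1:**
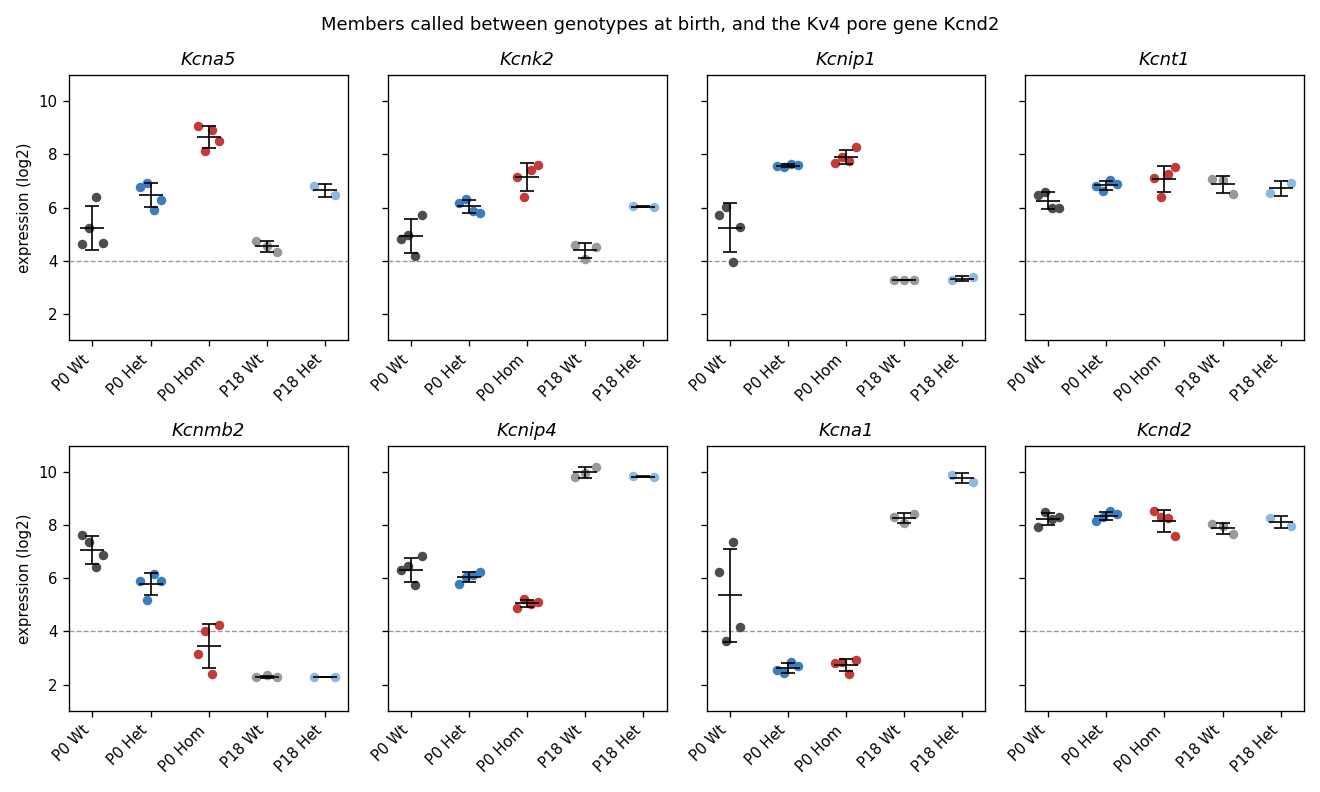
Expression (log2) of the 7 members called between genotypes at birth and of Kcnd2, by group. Points are arrays, bars are the mean ± SD, and the dashed line marks 4. Among the P0 groups Kcna5 and Kcnk2 stand highest and Kcnmb2 and Kcnip4 lowest in Hom, while Kcnd2 stays between 7.58 and 8.54 at both ages.

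Kcna5 encodes Kv1.5, a delayed rectifier of the Shaker family. Its levels at birth were 4.63, 5.24, 6.40 and 4.66 in Wt, 6.77, 6.93, 5.92 and 6.29 in Het, and 9.07, 8.14, 8.93 and 8.52 in Hom arrays. All Hom arrays lay above all Het and Wt arrays, and 1 Wt array, replicate 3, overlapped Het. Kcna5 rose by 3.43 ± 0.34 in Hom against Wt (SE, adjusted p = 7.7e-06, limma), which is a linear fold of 10.8, and by 2.19 ± 0.34 in Hom against Het (adjusted p = 0.0015). In Het against Wt the difference of 1.24 ± 0.34 missed the threshold (adjusted p = 0.060), and it passed without P0 Wt replicate 3 (1.63, adjusted p = 0.0040). It stayed not called in 15 of 19 alternative fits.

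Kcnk2 encodes TREK-1, a leak channel opened by stretch, lipids and heat. It stood at 4.83, 4.98, 4.17 and 5.74 in the Wt arrays at birth, at 6.16, 6.34, 5.88 and 5.78 in Het and at 7.16, 6.39, 7.43 and 7.62 in Hom arrays. The 3 genotypes did not overlap and followed the number of mutated alleles. Kcnk2 rose by 2.22 ± 0.30 in Hom against Wt (SE, adjusted p = 0.00013, limma), and its difference in Het was 1.11 ± 0.30 (adjusted p = 0.054). The rise of 1.11 in Hom against Het (adjusted p = 0.034) was lost without any one of P0 Het replicates 5 to 8 or P0 Hom replicates 9, 11 or 12. Without P0 Wt replicate 4 the Het difference was called (1.38, adjusted p = 0.012). The Het difference stayed not called in 16 of 19 alternative fits. With the glia, muscle and fat medians as covariates it was 0.12 (adjusted p = 0.99), and the Hom difference of 1.46 was not called (adjusted p = 0.12). That fit called only 0.0802% of all probe sets in Het and 2.87% in Hom against Wt.

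Kcnmb2 encodes the beta2 subunit, which gives BK channels fast inactivation. Its levels were 7.62, 7.36, 6.41 and 6.88 in Wt, 5.90, 5.17, 6.15 and 5.90 in Het, and 3.15, 4.02, 2.40 and 4.23 in Hom arrays at birth. The genotypes again did not overlap, this time falling with the number of mutated alleles, and 2 of the 4 Hom arrays lay under 4. Kcnmb2 fell by 3.62 ± 0.35 in Hom against Wt (SE, adjusted p = 6.5e-06, limma) and by 2.33 ± 0.35 in Hom against Het (adjusted p = 0.0011). The Het difference of -1.29 ± 0.35 missed the threshold (adjusted p = 0.059) and was called without P0 Wt replicate 3 (-1.51, adjusted p = 0.039). It stayed not called in 15 of 19 alternative fits.

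Kcnip1 encodes KChIP1, a calcium-binding partner of Kv4 pores. It stood at 5.73, 6.04, 3.95 and 5.27 in the Wt arrays at birth, at 7.56, 7.53, 7.64 and 7.59 in Het and at 7.69, 7.90, 7.74 and 8.29 in Hom arrays. Both mutant groups lay above all Wt arrays and close to each other. Kcnip1 rose by 2.33 ± 0.31 in Het (SE, adjusted p = 0.00061, limma) and by 2.66 ± 0.31 in Hom against Wt (adjusted p = 3.8e-05). Hom exceeded Het by 0.33 ± 0.31, which was not called (adjusted p = 0.57). With the glia, muscle and fat medians as covariates, the Het difference was 1.05 and not called (adjusted p = 0.41), and the Hom difference was 1.50 (adjusted p = 0.041). Over all probe sets that fit called 0.0802% in Het and 2.87% in Hom.

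Kcnk2 and Kcnip1 were the 2 members whose P0 arrays rose from Wt over Het to Hom with no overlap, beside 0.632% of all probe sets, and Kcnmb2 was the 1 that fell in this way, beside 0.311% of all probe sets.

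Kcnip4 encodes KChIP4, another Kv4 partner, and moved the other way. It stood at 6.30, 6.45, 5.74 and 6.83 in the Wt arrays at birth, at 5.77, 6.04, 6.13 and 6.23 in Het and at 4.90, 5.22, 5.02 and 5.09 in Hom arrays. Wt and Het overlapped, and all Hom arrays lay below both. Kcnip4 fell by 1.27 ± 0.18 in Hom against Wt (SE, adjusted p = 0.00024, limma) and by 0.98 ± 0.18 in Hom against Het (adjusted p = 0.0048), and its Het difference was -0.29 ± 0.18 (adjusted p = 0.43).

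Kcna1 encodes Kv1.1, a pore of axons and of the juxtaparanodes of myelinated fibres. Its levels at birth were 6.24, 3.65, 7.38 and 4.17 in Wt, 2.53, 2.42, 2.85 and 2.68 in Het, and 2.81, 2.85, 2.40 and 2.91 in Hom arrays. All mutant arrays lay under 3, near background, and the Wt arrays were widely spread. Kcna1 fell by 2.74 ± 0.56 in Het (SE, adjusted p = 0.015, limma) and by 2.62 ± 0.56 in Hom against Wt (adjusted p = 0.0068). The myelin gene Mbp had the same order in these Wt arrays, at 10.43, 7.64, 11.60 and 9.22, and stood at 6.81 to 7.76 in the mutant arrays, a range that holds the lowest Wt array. With the glia, muscle and fat medians as covariates, the Kcna1 difference was 0.06 in Het (adjusted p = 1.0) and -0.16 in Hom (adjusted p = 0.92). The covariates follow genotype in part, so this fit has little to separate them. The Kcna1 calls were also lost when the compared arrays were fitted alone.

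**Figure D2:**
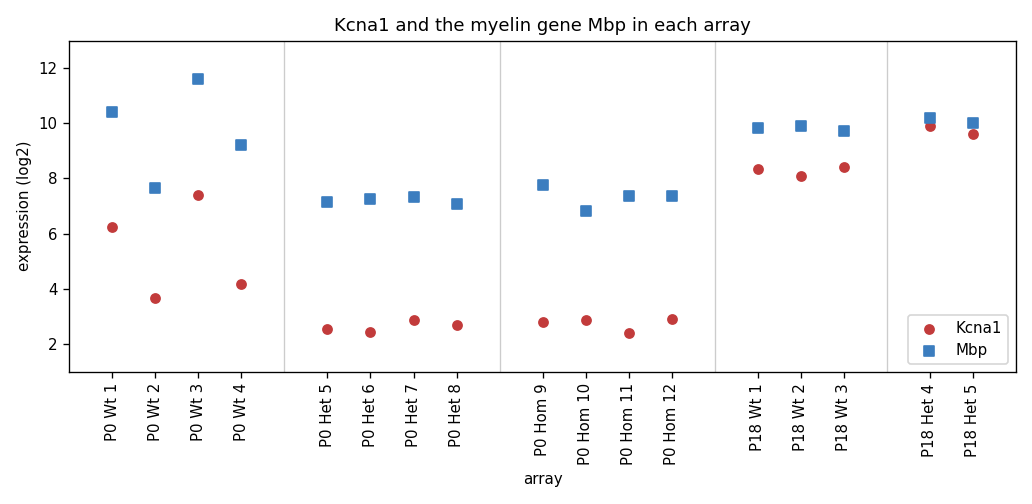
Expression (log2) of Kcna1 (circles) and of the myelin gene Mbp (squares) in each of the 17 arrays, in the order of the groups. At birth Kcna1 is spread in Wt (3.65 to 7.38) and under 3 in every mutant array, Mbp in P0 Wt replicate 2 (7.64) lies within the mutant range of 6.81 to 7.76, and at P18 Kcna1 is at 8.07 to 9.90.

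Kcnt1 encodes Slack, a sodium-activated pore. It stood at 6.49, 6.58, 5.98 and 5.99 in Wt and at 7.12, 6.39, 7.26 and 7.52 in Hom arrays at birth, so that the groups overlapped. The rise of 0.81 ± 0.22 (SE, adjusted p = 0.033, limma) was lost without P0 Wt replicate 3 or 4 or P0 Hom replicate 9, 11 or 12.

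The pores whose partners changed did not pass the test themselves. Kcnd2, the Kv4.2 pore of the A current, had means of 8.23 ± 0.23 for Wt, 8.36 ± 0.16 for Het and 8.17 ± 0.40 for Hom (SD over 4 arrays each), with differences from Wt of 0.12 ± 0.18 and -0.07 ± 0.18 (SE). Kcnma1, the BK pore, stood at 8.18 ± 0.30, 8.38 ± 0.09 and 8.03 ± 0.21, with differences of 0.20 ± 0.14 and -0.15 ± 0.14. Kcnmb4, the neuronal beta4 subunit of BK, stood at 8.86 ± 0.33, 8.96 ± 0.23 and 8.83 ± 0.13, with differences of 0.09 ± 0.15 and -0.03 ± 0.15. The smallest adjusted p among these 6 differences was 0.49.

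Dpp6 and Dpp10, peptidase-like membrane proteins that bind Kv4 pores and speed them, are not named Kcn but belong to the same complex. Dpp10 stood at 6.31, 6.26, 5.26 and 5.70 in the Wt arrays at birth, at 7.41, 7.55, 7.12 and 7.11 in Het and at 8.31, 7.95, 8.58 and 8.45 in Hom arrays. The 3 genotypes did not overlap. Dpp10 rose by 1.41 ± 0.21 in Het (SE, adjusted p = 0.0014, limma) and by 2.44 ± 0.21 in Hom against Wt (adjusted p = 1.7e-06). Dpp6 stood at 6.74 to 7.28 in Wt, at 7.47 to 7.84 in Het and at 7.91 to 8.58 in Hom, again with no overlap. It rose by 0.67 ± 0.15 in Het (adjusted p = 0.025) and by 1.36 ± 0.15 in Hom (adjusted p = 2.6e-05). The Het call of Dpp6 was lost without P0 Wt replicate 2 or 3 or P0 Het replicate 5, 6 or 8, and with marker covariates the Het differences were 0.35 for Dpp6 and 0.88 for Dpp10, neither called (adjusted p = 0.79 and 0.27). In the Kv4 complex at birth, 3 partner genes thus rose and 1 fell in Hom ganglia beside a pore gene that was not called.

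**Figure D3:**
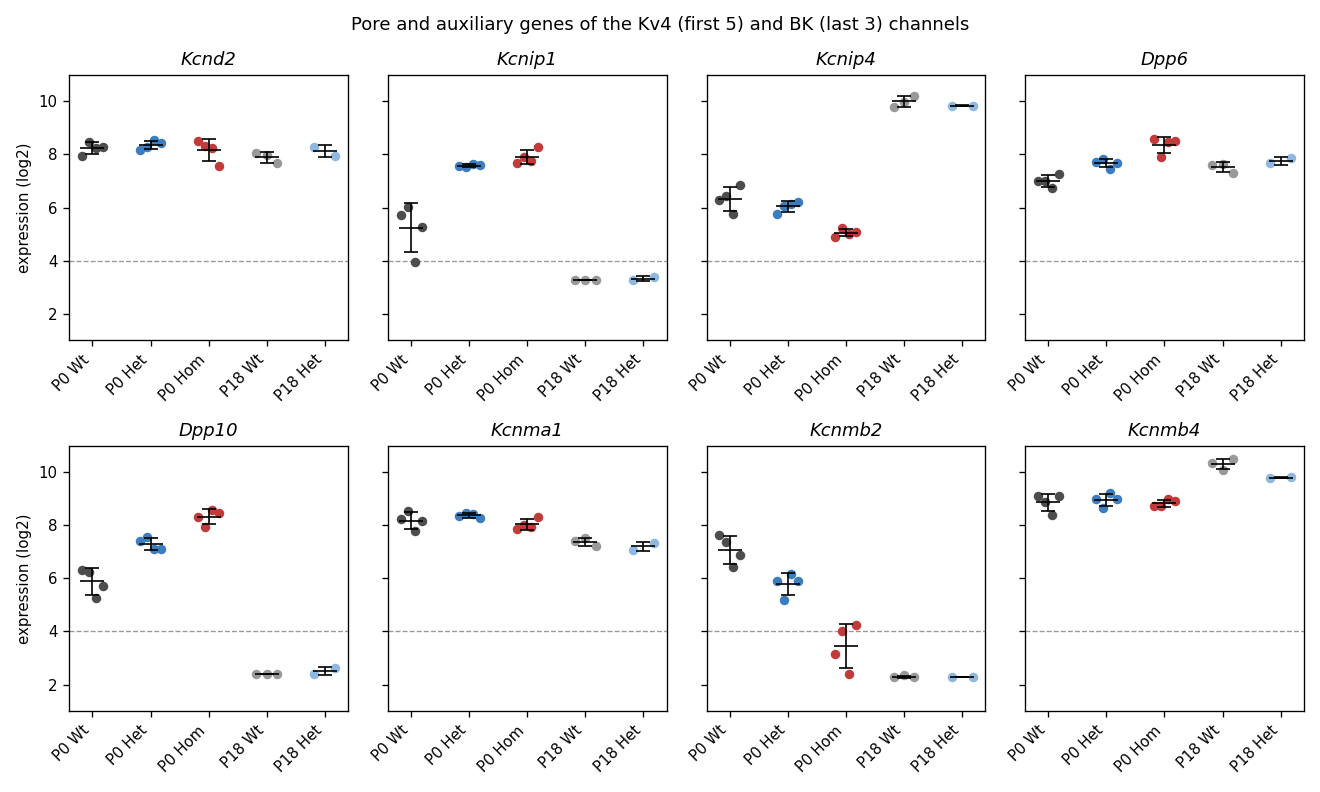
Expression (log2) by group of genes of the Kv4 channel (Kcnd2, Kcnip1, Kcnip4, Dpp6, Dpp10) and of the BK channel (Kcnma1, Kcnmb2, Kcnmb4). Points are arrays, bars are the mean ± SD, and the dashed line marks 4. Kcnip1, Dpp10 and Kcnmb2 are at 2.27 to 3.38 at P18, and Kcnip4 and Kcnmb4 are highest there.

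The other tested members did not pass at birth. Among the voltage-gated pores, Kcnh1 (EAG1) stood 0.97 ± 0.32 lower in Het (SE, adjusted p = 0.11), and Kcnh2 (ERG1) 0.75 ± 0.23 higher in Hom (adjusted p = 0.058). Kcnq5, an M-current pore, differed from Wt by -0.28 ± 0.21 in Het and -0.36 ± 0.21 in Hom, and Kcnc4, a fast Kv3 pore, by -0.13 ± 0.14 and 0.11 ± 0.14. Kcnc2, the other Kv3 pore tested, reached 5.67 and 6.97 in P0 Wt replicates 1 and 4, those with Pou4f1, and 4.78 and 4.76 in replicates 2 and 3. In the P0 mutant arrays, where Pou4f1 stood at 2.51 to 2.62, Kcnc2 ran from 4.43 to 6.04. The highest of these were P0 Hom replicate 12 (6.04) and P0 Het replicate 6 (5.42). None of the 5 inward rectifiers differed by more than 0.39 from Wt in either genotype. Without P0 Wt replicates 1 and 4 the counts of members called were 6 in Het, where Kcnh1, Kcnk1, Kcnk2 and Kcnq5 joined, and 8 in Hom, where Kcnk1 and Kcnq5 joined and Kcnt1 left. The share of all probe sets called was then 6.95% in Het and 8.32% in Hom.

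Of 40 partner genes with other names (scaffolds, trafficking and regulatory proteins), 29 were tested. At birth 2 were called higher and 1 lower in Het (10.3%, beside 3.11% of all probe sets) and 4 higher and 1 lower in Hom against Wt (17.2%, beside 8.5%), with median differences of 0.01 and -0.02. Beside Dpp6 and Dpp10, Lgi2, a secreted synaptic protein of the Lgi family, rose by 1.57 ± 0.28 (SE, adjusted p = 0.0016) and the scaffold gene Dlg4 (PSD-95) by 0.71 ± 0.17 in Hom (adjusted p = 0.016), the latter call being lost without P0 Hom replicate 9. The scaffold gene Dlg2 fell by 0.52 ± 0.15 in Hom (adjusted p = 0.036), a call lost without P0 Wt replicate 1, 2 or 4 or P0 Hom replicate 9, 10 or 11. Adam23, an Lgi receptor, fell by 0.73 ± 0.16 in Het (adjusted p = 0.019, lost without P0 Wt replicate 3 or P0 Het replicate 7 or 8), while its Hom mean of 6.56 lay near the Wt mean of 6.70. In Hom against Het 5 partner genes were called higher (Dpp6, Dpp10, Lgi2, Adam23, Jph4) and 2 lower (Akap9, Gng2). These are 24.1% of those tested, beside 7.39% of all probe sets.

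Promoter sequence was looked at for Kcna5 and Kcnmb2, the members with the widest rise and fall by genotype that have 1 start site each in the RefSeq table (GRCm38.p6), which held 60 of the 78 members. Each window runs 5′ to 3′ from 250 bases before to 50 after the start, at chr6:126535506-126535805 on the minus strand for Kcna5 and chr3:31902453-31902752 on the plus strand for Kcnmb2. Capitals mark a match to any of 6 motifs on either strand.
Kcna5: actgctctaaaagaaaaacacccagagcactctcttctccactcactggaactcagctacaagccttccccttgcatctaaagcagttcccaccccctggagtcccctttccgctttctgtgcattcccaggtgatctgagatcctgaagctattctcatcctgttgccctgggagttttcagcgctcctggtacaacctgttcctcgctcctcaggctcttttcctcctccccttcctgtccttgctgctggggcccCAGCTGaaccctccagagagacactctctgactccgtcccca
Kcnmb2: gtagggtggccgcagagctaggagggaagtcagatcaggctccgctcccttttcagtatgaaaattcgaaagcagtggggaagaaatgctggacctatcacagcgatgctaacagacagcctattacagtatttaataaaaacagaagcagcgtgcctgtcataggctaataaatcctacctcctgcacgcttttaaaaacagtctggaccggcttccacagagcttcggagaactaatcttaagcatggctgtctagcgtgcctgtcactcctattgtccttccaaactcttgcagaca
Searched were the cAMP response element TGACGTCA (1.79% of 32851 windows of this length), the AP-1 site TGACTCA (5.2%), the ETS site CCGGAAGT (3.89%), the E-box CAGCTG (16.3%), the GC box GGGCGG (35.7%) and the TATA box TATAAA (13.6%), none of which overlapped another match in these windows. The Kcna5 window held the E-box once, and the Kcnmb2 window held none of the 6. Kcna5, Kcna1 and Kcna6 are consecutive protein-coding genes on chromosome 6 in that annotation, and at birth Kcna5 rose and Kcna1 fell while Kcna6 did not pass the filter.

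At P18 the same question was asked of Het against Wt. No member was called by limma, beside 0.261% of all probe sets. Before adjustment 6 members had a limma p under 0.05, a count without its share of all probe sets. The arrays of the 2 groups did not overlap for 11 of the 28 members (39.3%), beside 35.5% of all probe sets. Kcna5 stood at 4.76, 4.54 and 4.32 in Wt and at 6.81 and 6.47 in Het, a difference of 2.10 ± 0.44 (SE, adjusted p = 0.065). Kcnk2 stood at 4.60, 4.06 and 4.52 in Wt and at 6.05 and 6.02 in Het, a difference of 1.65 ± 0.38 (adjusted p = 0.11). For both, the Het arrays lay above all Wt arrays at P18, as they did for Kcnk2 at birth. Fitted on the P18 arrays alone, the Kcna5 difference was called (adjusted p = 0.038) and that of Kcnk2 was not (adjusted p = 0.064). Kcna1, whose Het arrays (9.90 and 9.63) also lay above all Wt arrays (8.07 to 8.42), was the other member called in that fit.

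Kcnmb4os2, a transcript from the strand opposite Kcnmb4, stood at 5.73, 5.66 and 6.33 in Wt and at 4.54 and 4.91 in Het at P18, a difference of -1.18 ± 0.25 (SE, adjusted p = 0.066). Kcnmb4 itself stood at 10.36, 10.08 and 10.48 in Wt and at 9.78 and 9.80 in Het, a difference of -0.52 ± 0.20 (adjusted p = 0.47). Both Het arrays lay below all Wt arrays for each. Kcnj13 (Kir7.1, an inward rectifier of epithelia) stood at 3.51, 3.89 and 5.32 in Wt and at 5.72 and 5.27 in Het, which overlap. Its difference of 1.25 ± 0.36 (adjusted p = 0.29) passed only without P18 Wt replicate 3 among the fits that left out 1 array (1.79, adjusted p = 0.00084).

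For Kcnip1 and Kcnmb2 no genotype difference could be measured at P18, since Kcnip1 lay at 3.26 to 3.38 and Kcnmb2 at 2.27 to 2.34 in both genotypes. Of the 29 partner genes tested, Lgi4, a secreted Schwann cell protein needed for myelination, was the 1 called at P18. It stood at 9.13, 9.07 and 9.15 in Wt and at 10.40 and 10.18 in Het, a rise of 1.17 ± 0.21 (SE, adjusted p = 0.029, limma). Both Het arrays lay above all Wt arrays, but the call was lost without any one of the 5 P18 arrays (adjusted p = 0.069 to 0.43). The glial medians of 8.76 to 9.29 in Wt and 9.25 to 9.46 in Het overlapped.

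From birth to P18, the channel genes of Wt ganglia were compared to see how they changed with age. In Wt ganglia 17 members rose and 5 fell, so that 22 of 28 (78.6%) were called, beside 54.9% of all probe sets (27.9% higher and 27% lower). The median difference was 0.99 for the members and 0.01 for all probe sets. Members that pass the filter at 1 age only had to differ. Among the 16 that exceeded 4 in every array, 10 rose and 1 fell (68.8%), beside 54.2% of the 8185 such probe sets. In Het ganglia 14 rose and 4 fell, or 64.3% of the members beside 47.8% of all probe sets (22.3% higher and 25.5% lower), with medians of 0.73 and -0.04. Of the same 16 members 7 were called in Het ganglia (43.8%), beside 47.1% of such probe sets.

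**Figure D4:**
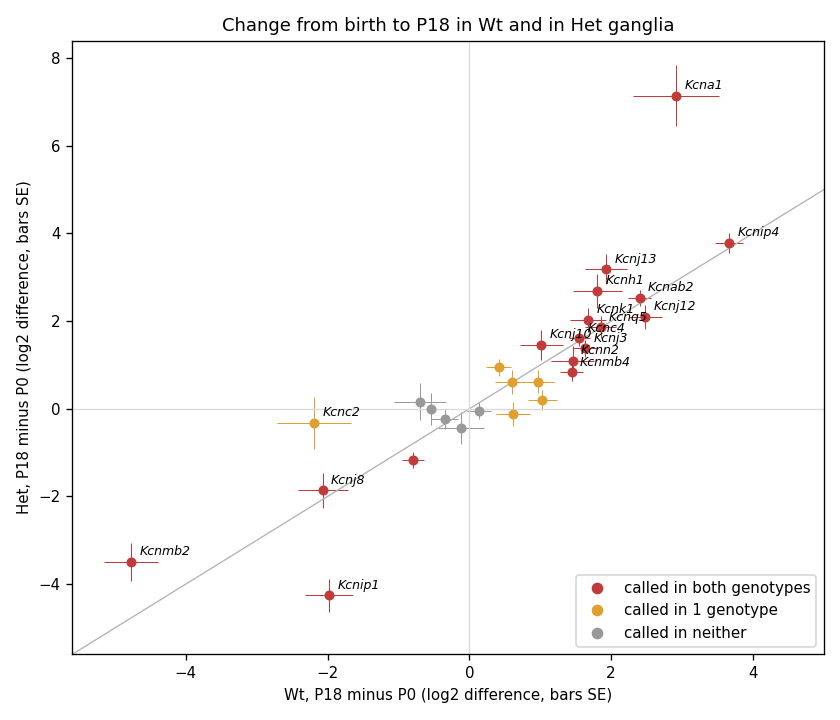
Difference between P18 and P0 (log2) of the 28 tested members in Wt ganglia (horizontal axis) and in Het ganglia (vertical axis), with SE bars. The line marks equal differences. Members called in both genotypes lie in the upper right or the lower left quadrant. Kcna1 (2.92 in Wt, 7.15 in Het) and Kcnip1 (-1.98 and -4.26) lie farthest from the line.

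Kcnip4 had the largest rise in Wt ganglia, from 5.74 to 6.83 in the P0 arrays to 9.80, 9.97 and 10.21 at P18. It rose by 3.66 ± 0.20 (SE, adjusted p = 8.2e-10, limma). In Het ganglia it rose by 3.79 ± 0.22 (adjusted p = 2.6e-09), to 9.84 and 9.81.

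Kcna1 reached 8.33, 8.07 and 8.42 in Wt and 9.90 and 9.63 in Het ganglia at P18. It rose by 2.92 ± 0.61 in Wt (SE, adjusted p = 0.00081, limma) and in Het by 7.15 ± 0.69 (adjusted p = 5.6e-07), from Het arrays near background. Mbp stood at 9.72 to 9.91 in Wt and above that, at up to 10.19, in Het at P18, below 2 of the 4 P0 Wt arrays.

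Kcnab2 encodes Kvbeta2, a subunit that carries Kv1 channels to axons. It went from 3.89 to 4.31 in P0 Wt to 6.40, 6.56 and 6.38 at P18, and from 3.21 to 3.91 in P0 Het to 6.18 and 6.18. It rose by 2.40 ± 0.16 in Wt (SE, adjusted p = 8.0e-09, limma) and in Het ganglia by 2.53 ± 0.18 (adjusted p = 2.5e-08), with no overlap between ages.

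Among the inward rectifiers, Kcnj12 (Kir2.2) went from 3.55 to 3.66 in P0 Wt to 6.08, 6.12 and 6.10 at P18. It rose by 2.48 ± 0.23 in Wt (SE, adjusted p = 3.4e-07, limma) and in Het ganglia by 2.09 ± 0.27 (adjusted p = 9.7e-06). Kcnj13 was at 2.30 to 2.33 in all P0 arrays and rose by 1.93 ± 0.30 in Wt and by 3.18 ± 0.34 in Het ganglia. Kcnj3 (GIRK1, a target of G-protein beta-gamma subunits) was at 2.24 to 2.93 at birth and at 4.31, 3.95 and 4.19 in Wt and 3.70 and 3.88 in Het at P18, so that it crossed 4 in 2 arrays only. Kcnj10 (Kir4.1, a channel of glia) rose by 1.01 ± 0.30 in Wt (adjusted p = 0.010) and by 1.46 ± 0.34 in Het (adjusted p = 0.0024). The Wt call of Kcnj10 was lost without P0 Wt replicates 1 and 4, and its highest P0 value, 7.70, was in P0 Wt replicate 3, where Mbp was also highest.

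Among the voltage-gated pores Kcnq5 went from 4.60 to 5.70 in P0 Wt to 7.02, 7.17 and 6.85 at P18. It rose by 1.85 ± 0.22 in Wt (SE, adjusted p = 4.2e-06, limma) and in Het ganglia by 1.86 ± 0.25 (adjusted p = 1.8e-05). Kcnh1 went from 4.30 to 5.39 in P0 Wt to 6.86, 6.91 and 6.26 at P18 and rose by 1.81 ± 0.34 in Wt and by 2.70 ± 0.39 in Het ganglia. Kcnc4 rose by 1.55 ± 0.15 in Wt and by 1.61 ± 0.17 in Het ganglia. No P18 array of these 3 genes overlapped a P0 array of its own genotype. Kcnh2 rose by 0.61 ± 0.25 in Wt (adjusted p = 0.0497), a call lost without any one of P0 Wt replicates 1, 2 and 3 or P18 Wt replicates 1, 2 and 3, and had the same difference of 0.61 in Het (adjusted p = 0.088).

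Kcnk1 encodes TWIK-1, a leak channel, and rose by 1.67 ± 0.25 in Wt (SE, adjusted p = 3.7e-05, limma) and in Het ganglia by 2.02 ± 0.28. Kcnn2, the SK2 channel of the calcium-activated afterhyperpolarisation, rose by 1.46 ± 0.30 in Wt (adjusted p = 0.00072) and in Het ganglia by 1.10 ± 0.34, the latter call being lost without either P18 Het array. Kcnmb4 rose by 1.44 ± 0.17 in Wt (adjusted p = 2.7e-06) and in Het ganglia by 0.83 ± 0.19 (adjusted p = 0.0017). Kcnmb4os2 (1.03), Kcnn4 (0.97) and Kcnt1 (0.62) completed the rises in Wt ganglia. The Kcnt1 call was lost without P0 Wt replicate 3 or 4 or P18 Wt replicate 1 or 2. Kcnk13 (THIK-1) differed by 0.94 ± 0.20 in Het ganglia (adjusted p = 0.00086), and its Wt difference was 0.41 ± 0.17 (adjusted p = 0.054). It passed the filter only through the 2 P18 Het arrays, at 4.45 and 4.24, so its Het call is no independent support for a rise. Its P0 Het arrays stood at 3.21 to 3.53, near background.

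The largest fall in Wt ganglia was that of Kcnmb2, from 6.41 to 7.62 in P0 Wt to 2.27, 2.34 and 2.28 at P18. It fell by 4.77 ± 0.38 in Wt (SE, adjusted p = 5.2e-08, limma) and in Het ganglia by 3.50 ± 0.43 (adjusted p = 6.8e-06), in both to background. Kcnip1 fell by 1.98 ± 0.34 in Wt (adjusted p = 0.00013) and in Het ganglia by 4.26 ± 0.38 (adjusted p = 2.4e-07), also to values under 4, which was the largest fall of a member in Het ganglia. Dpp10 stood with them, at 2.40 to 2.62 in all P18 arrays, and fell by 3.48 ± 0.22 in Wt (adjusted p = 5.4e-09) and in Het ganglia by 4.79 ± 0.25 (adjusted p = 1.1e-09).

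Kcnj8 encodes Kir6.1, the pore of the KATP channel of pericytes and smooth muscle. It went from 5.24 to 6.04 in P0 Wt to 3.88, 3.67 and 3.34 at P18, and fell by 2.07 ± 0.35 in Wt (SE, adjusted p = 0.00013, limma) and in Het ganglia by 1.86 ± 0.40 (adjusted p = 0.0011). Abcc9, the sulphonylurea receptor that pairs with it, fell by 1.38 ± 0.28 in Wt and by 1.20 ± 0.32 in Het ganglia. The median of 9 mural cell genes, Abcc9 among them, was 5.07 to 7.52 in P0 Wt and 4.93 to 4.98 in P18 Wt ganglia. In Het ganglia it was 4.65 to 5.82 at birth and 4.93 to 5.78 at P18, so that the ages overlapped.

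Kcnma1 fell less, by 0.80 ± 0.15 in Wt (SE, adjusted p = 0.00042, limma) and in Het ganglia by 1.17 ± 0.17 (adjusted p = 4.9e-05), and its P18 arrays lay below all P0 arrays of their genotype. Kcnc2 fell by 2.19 ± 0.52 in Wt (adjusted p = 0.0022) and differed by -0.32 ± 0.59 in Het ganglia (adjusted p = 0.70). Its P0 Wt values were highest in the arrays with Pou4f1, but P0 Het replicate 6 reached 5.42 with Pou4f1 at 2.52. Kcna5, Kcnk2, Kcnd2, Kcnu1 and Kcnq1ot1 were called with age in neither genotype.

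**Figure D5:**
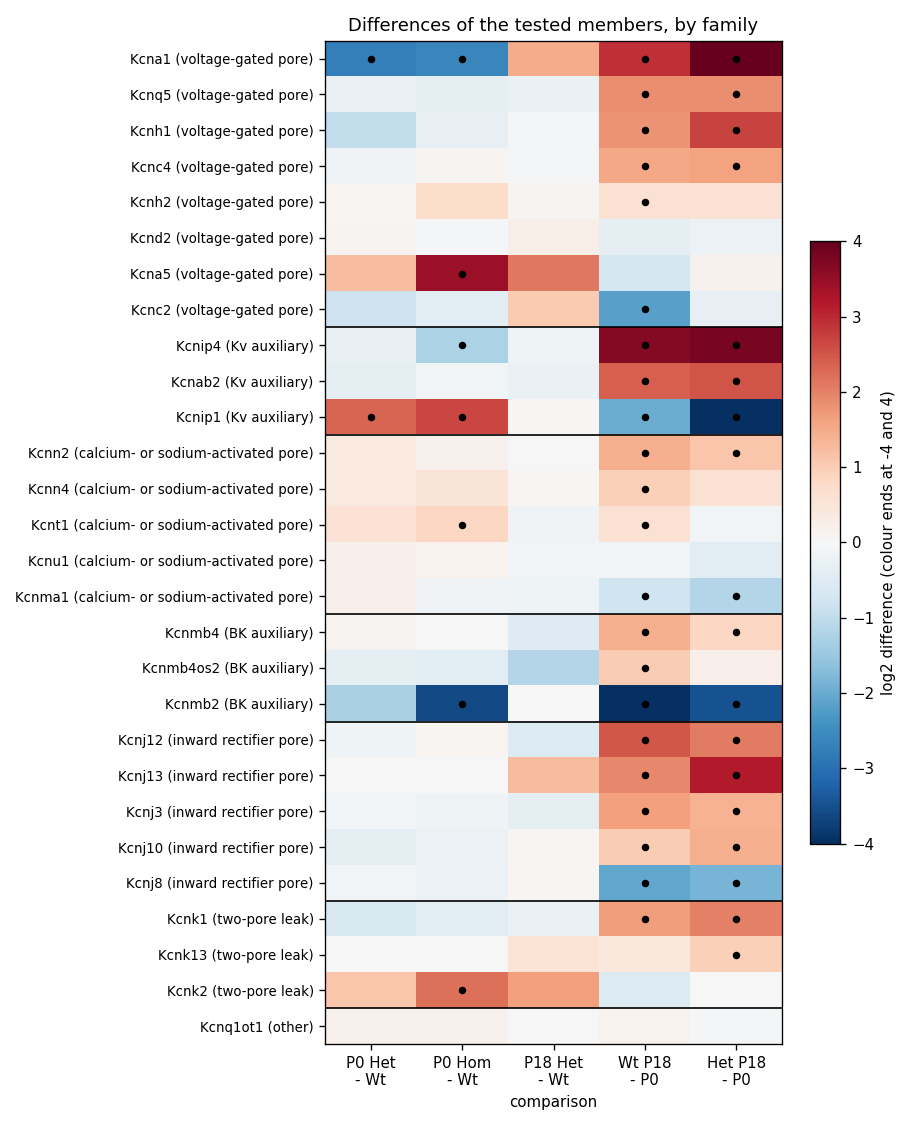
Log2 difference of each of the 28 tested members (rows, grouped by family) in 5 comparisons (columns). Red is higher and blue lower in the group named first, the colour ends at -4 and 4, and a dot marks an adjusted p under 0.05. The dots crowd in the 2 columns of age, 22 for Wt and 18 for Het, and the P18 genotype column has none.

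The Wt and Het comparisons of age share no array. Of the members, 17 were called in both and in the same direction, which is 77.3% of those called in Wt and 94.4% of those called in Het ganglia, and none was called in opposite directions. Over all probe sets these shares were 73% and 83.9%. Of the 28 members, 25 had the same sign in both, and Pearson's r over the 28 members was 0.86, as a description of points that share their arrays and in which genes are not independent replicates.

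Among the 29 partner genes tested, 11 rose and 7 fell with age in Wt and 10 rose and 8 fell in Het ganglia, in both 62.1% beside 54.9% and 47.8% of all probe sets, with median differences of 0.10 and 0.09. Lgi3 and Lgi4 rose by 2.63 ± 0.18 and by 2.57 ± 0.18 in Wt ganglia (SE, adjusted p = 8.9e-09 and 1.0e-08, limma), and Lgi1 fell by 1.40 ± 0.24 (adjusted p = 0.00017). Adam23 rose by 0.98 ± 0.17 and Dlg2 by 1.04 ± 0.16. Cntnap2 (Caspr2, which anchors Kv1 channels beside the node) rose by 0.70 ± 0.22 (adjusted p = 0.013, lost without P18 Wt replicate 1). In Het ganglia Lgi3 rose by 2.47 ± 0.20, Lgi4 by 3.47 ± 0.20, Adam23 by 1.86 ± 0.19 and Cntnap2 by 1.05 ± 0.25, and Lgi1 fell by 0.95 ± 0.28, a call lost without P18 Het replicate 4.

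Whether the Het difference itself changed between birth and P18 was tested as an interaction. No member was called by limma, beside 0.14% of all probe sets. Before adjustment 7 members had a limma p under 0.05, a count without its share of all probe sets. The widest was Kcna1, whose Het difference was -2.74 at birth and 1.49 at P18. The change of 4.23 ± 0.92 (SE) had an adjusted p of 0.094, which fell to 0.019 without P0 Wt replicate 2 and to 0.045 without P0 Wt replicate 3. For Kcnip1 the Het difference was 2.33 at birth and 0.06 at P18, where both groups were under 4. The change of -2.28 ± 0.51 had an adjusted p of 0.096, and of 0.035 and 0.013 without the same 2 arrays in turn. For Kcna1 and for Kcnip1 alike, 18 of 22 alternative fits left the change not called. For Kcna5 and Kcnk2 the Het difference was 0.86 ± 0.55 and 0.53 ± 0.48 larger at P18 than at birth (adjusted p = 0.62 and 0.74).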

How the data were processed

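Expression was measured with Affymetrix Mouse Genome arrays in 17 samples of sympathetic ganglia. The authors normalized the arrays with GCRMA (version not given in the sources used here) and Brainarray gene annotation and deposited log2 values, 1 per gene and array. Their number limits the precision. The labels name a column kit for tumour RNA, while the methods give Trizol for ganglia. Symbols came from the platform annotation, updated by Entrez ID through RefSeq (78 of 78 members matched, 0 symbols changed).

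A linear model with a mean for each of the 5 groups was then fitted to the 17 arrays together (limma 3.58.1, R 4.3.3), with trend and robust eBayes, two-sided, and Benjamini-Hochberg adjustment over the 9973 probe sets over 4 in at least 2 arrays. The script was tested on simulated data. Errors are SE of the fit or SD over arrays. Members called in a comparison were named, as were channel genes fixed by name, partner genes that were called, and, for their size or overlap, a few others (Kcnj13, Kcnmb4os2, Kcna6) chosen after their values were seen. The members, families, partner list and marker lists were chosen with earlier results of these data known. Alternatives were other filters, scalings and fits, left-out arrays, marker covariates, a replicate block and the methods' test.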

Additional observations from a re-analysis of the deposited data

Results flagged for a closer look

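Of 84 sets of 4 P0 arrays (28 members in 3 groups), 3 had 1 array set apart from the other 3 by more than Dixon's 95% critical share of the range, where chance sets apart about 1 in 20, or 4.2. Kcnc2 stood at 5.42 in P0 Het replicate 6 and at 4.43 to 4.53 in the other Het arrays. Kcnk1 stood at 3.12 in the same array and at 3.81 to 3.82 in the others, all under 4. Kcnh2 stood at 7.04 in P0 Wt replicate 4 and at 6.63 to 6.69 in the other Wt arrays. Kcna1 was lower in every Het array than in every Wt array at birth and higher in every Het array than in every Wt array at P18. Its Het difference changed by 4.23 between the ages (adjusted p = 0.094, limma interaction, not called).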

How the results depend on the processing

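Of 2232 alternative values for 81 member and 52 partner differences, 1996 kept direction and side of the threshold, 180 lost a call, 55 gained one and 1 reversed. The reversal was Kcna1 in P0 Het against Wt, 0.058 with marker covariates. For P0 Het against Wt (2 members called), the count was 1 with the compared arrays alone, 6 with array weights, 0 by the methods' test (8 before adjustment), 6 without P0 Wt replicates 1 and 4, 4 without both P0 Wt array 3 and P0 Hom array 12, 0 with marker covariates, and 2 to 4 with single arrays left out. For P0 Hom against Wt (7) it was 2 by the methods' test, Kcna5 and Kcnmb2, 4 with marker covariates and 6 to 8 with single arrays left out. For P0 Hom against Het (4) it was 7 with array weights, 2 by the methods' test and 3 to 5 with single arrays left out. For P18 Het against Wt (0) it was 1 with plain eBayes, 2 with the compared arrays alone, 5 with array weights and 0 to 1 with single arrays left out, where 1 remaining Het array is assumed to vary like the others. For the interaction (0) it was 3 with array weights, 2 without both P0 Wt array 3 and P0 Hom array 12, and 0 to 2 with single arrays left out. For Wt P18 against P0 (22) it was 38 with no filter, where all 78 members were tested and 43.6% of all probe sets called, 20 to 22 with single arrays left out, and 21 with a replicate block, which lost Kcnj10. The block used the shared numbers 1 to 3 of Wt arrays at both ages, whose deviations correlated at -0.01, 0.07 and -0.12, so the numbers do not pair the samples. For Het P18 against P0 (18) single arrays left out gave 17 to 19. Array weights also raised the share of all probe sets called, to 8.47% in P0 Het against Wt, 26.5% in P0 Hom against Het, 4.02% in P18 Het against Wt and 3.04% for the interaction. The compared arrays alone gave 2.11% in P0 Het against Wt and 0.18% in P18 Het against Wt, where plain eBayes gave 0.391%. Without both P0 Wt array 3 and P0 Hom array 12 the share was 3.9% in P0 Het against Wt and 0.672% for the interaction. The methods' test called 0.602% of all probe sets in P0 Het against Wt, where 1751 of 9973 had p under 0.05 before adjustment. It called 1.42% in P0 Hom against Wt and 2.25% in P0 Hom against Het. Marker covariates left 0.0802% of all probe sets called in P0 Het against Wt and 2.87% in P0 Hom against Wt. The cause of these changes was not tested. Values under 4 limit the size of differences at P18 and in P0 mutants.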
